A study of Homo sapiens with 9 samples.

Results

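The mitochondrial ribosomal protein genes, whose symbols begin with MRPL or MRPS and a digit, were followed in Huh7 hepatocellular carcinoma cells that had become resistant to sorafenib. Members were all genes in the deposited array table whose probe sets carried 1 such symbol and which RefSeq lists as protein coding, and there were 66 of them among 9784 genes, from 67 probe sets. RefSeq lists 77 protein-coding symbols of this form. MRPL30, MRPS16 and MRPS6 shared their probe sets with other genes and were left out, and MRPL10, MRPL23, MRPL34, MRPL43, MRPL52, MRPL54, MRPL55 and MRPS12 were not analysed here.

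Total RNA was measured in 3 groups of 3 samples, with 1 Affymetrix transcriptome array for each sample. Huh7-R-A7 is a single clone grown out of the resistant pool, Huh7-R is that uncloned pool, and Huh7-S are the untreated parental cells from which both were derived. Huh7 is an established human hepatocellular carcinoma line, and sorafenib is a kinase inhibitor given for liver cancer. Both resistant lines had received 10 µM sorafenib for 4 h weekly over 6 weeks, were then adapted to 6 µM, and were kept without drug for 5 to 7 days before use, so that the arrays show cells after withdrawal. The titles of the clone samples all read A7, but further labels on replicates 2 and 3 name other clones, which also differ from each other. It is therefore uncertain that all 3 samples come from the same clone. The methods call the samples of a group biological replicates, without saying how the cultures were kept apart, and p-values measure the spread between these samples.

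The mitochondrial ribosome makes the small set of hydrophobic respiratory chain and ATP synthase subunits that mitochondrial DNA still encodes. Its RNAs come from mitochondrial DNA, but every one of its proteins is encoded in the nucleus, made in the cytosol and imported. Some of its proteins have relatives in bacterial ribosomes and others were added during mitochondrial evolution. The large subunit joins the peptide bonds while the small subunit reads the message. Liver cells are rich in mitochondria, and the set of these genes is commonly read as one part of mitochondrial biogenesis.

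All signals below are log2 values, a difference of -1 being a halving. The median signal of the 66 genes was 8.06, 8.02 and 7.89 on the Huh7-R-A7 arrays, 7.97, 7.93 and 7.76 on the Huh7-R arrays, and 8.36, 8.30 and 8.18 on the Huh7-S arrays. All 6 resistant arrays lay below all 3 parental arrays. The median of all 9784 genes moved less, at 8.23 to 8.25 in Huh7-R-A7, 8.20 to 8.27 in Huh7-R and 8.23 to 8.37 in Huh7-S. Set against their own array's median, the member genes lay 0.18 to 0.34 below it in Huh7-R-A7, 0.30 to 0.43 below it in Huh7-R and 0.01 to 0.06 below it in Huh7-S. A lower signal in bulk RNA can come from fewer expressing cells or from less RNA per cell, which cannot be told apart here.

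**Figure D1:**
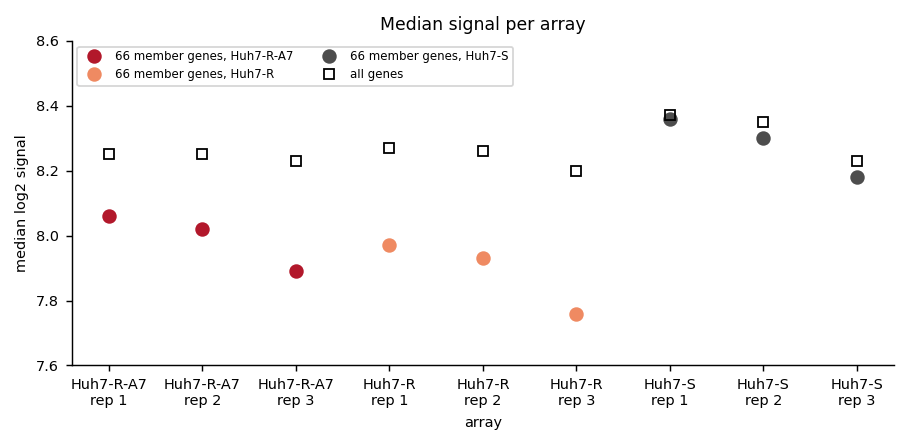
Median log2 signal (vertical axis) on each of the 9 arrays (horizontal axis), with filled circles for the 66 mitochondrial ribosomal protein genes and open squares for all 9784 genes. The member medians of the resistant arrays lie between 7.76 and 8.06, and those of the Huh7-S arrays between 8.18 and 8.36.

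Comparing Huh7-R-A7 with Huh7-S, 20 of the 66 genes were lower and 2 were higher at a limma adjusted p below 0.05. Over all genes tested, 24.6% were lower and 18% were higher in that comparison, so the share of members that fell, 30.3%, was not far above the background, while few members rose. The median difference of the members was -0.19, against -0.04 over all genes. A negative difference was seen in 56 of 66 members and in 5396 of 9784 genes. In Huh7-R against Huh7-S, 35 members were lower and 1 was higher, against 26.2% lower and 19% higher over all genes. The share of members that fell was 53.0%, and their median difference was -0.29, against -0.03 over all genes. There 58 members were negative, as were 5390 of 9784 genes. Both comparisons use the same 3 Huh7-S arrays, so their calls are not independent of each other.

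Falls that passed ran from -0.19 to -1.40 in Huh7-R-A7, with a median of -0.55, and from -0.21 to -1.05 in Huh7-R, with a median of -0.41. Only MRPL50 in the clone and only MRPL24 in the pool were at least 2-fold lower among the members, whereas 557 and 565 of all genes were. Among the members, 17 were lower in both resistant lines, 3 (MRPL17, MRPS21 and MRPS33, named after their values were seen) were lower in Huh7-R-A7 alone, 18 were lower in Huh7-R alone, and 26 passed in neither comparison. MRPL18 was the only member higher in both, and MRPL33 was higher in Huh7-R-A7 alone. A call made in 1 line alone does not show that the lines differ. How many of all genes were lower in both lines was not counted, so the 17 have no background here. The shared Huh7-S arrays also link the calls of the 2 lines. The clone arrays all lay below the parental arrays for 31 members (30.2% of all genes), of which 13 did not pass the test, and the pool arrays did so for 36 (30.1% of all genes), of which 3 did not pass.

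**Figure D2:**
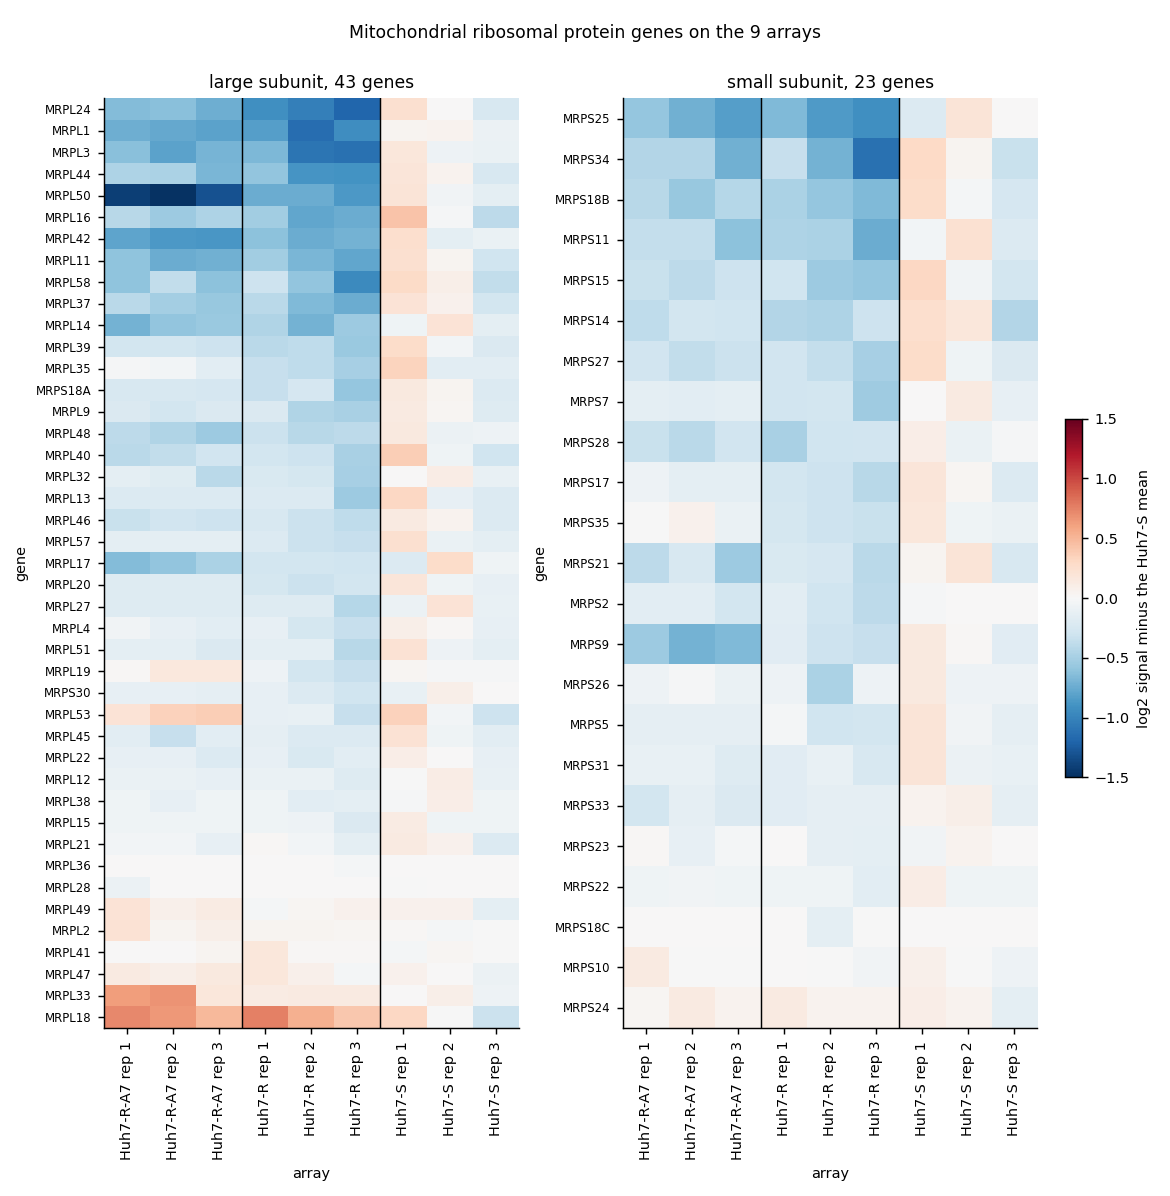
Log2 signal of each of the 66 genes (rows) on each of the 9 arrays (columns), as the difference from the mean of the 3 Huh7-S arrays, with blue below and red above that mean and the 43 large-subunit and 23 small-subunit genes in separate panels, ordered by the difference in Huh7-R. MRPL50 is the darkest row in Huh7-R-A7 (-1.40), MRPL24 the first row in Huh7-R (-1.05), and MRPL18 stands at the red end in both resistant lines.

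One parental array and equal values bear on these counts. Huh7-S replicate 1 was the highest parental array for 46 of the 66 members and lay 0.22 above the mean of the other 2 in the median member, against 0.03 over all genes. Without it, 15 members were lower and 3 higher in Huh7-R-A7 (median -0.16). Their share that fell, 22.7%, was below the 25.4% of all genes in that fit. In Huh7-R, 29 were then lower and 1 higher (43.9% lower, against 26.5% of all genes, median -0.23). Without Huh7-S replicate 3, the lowest of the parental arrays for most members, 32 were lower in Huh7-R-A7 (48.5%, against 25.3% of all genes in that fit). The Huh7-R count depended on single pool arrays. It was 18 without Huh7-R replicate 2 (27.3%, against 20.7% of all genes), 16 without Huh7-R replicate 3 (24.2%, against 19.4%) and 22 without Huh7-S replicate 2 (33.3%, against 20.2%), so that without either of those pool arrays the share of members that fell was near the background. In Huh7-R-A7 the count was lowest, at 14, without Huh7-R-A7 replicate 3 (21.2%, against 19.6% of all genes) or Huh7-S replicate 2 (21.2%, against 19.5%). When each array was dropped in turn, 13 of the 22 members called in Huh7-R-A7 and 16 of the 36 called in Huh7-R passed in every one of the 9 fits. Values repeated exactly on 2 or more arrays in 44 of the 66 members and in 59.9% of all genes. The 22 members with 9 different values had median differences of -0.48 in Huh7-R-A7 and -0.52 in Huh7-R, and the 44 others -0.13 and -0.24.

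The promoters of 5 members are shown here for different reasons: MRPL50 and MRPL42 fell most in the clone, MRPL3 was among the 3 that fell most in the pool, MRPL33 is the member that rose in the clone alone, and MRPL46 shares its start region with another member, MRPS11. Each runs 5′ to 3′ on the gene's own strand, from 250 bases before the start to 50 after it, taken from RefSeq on GRCh38.p14, with any searched motif in capitals. The windows are chr9:101398569-101398868 on the minus strand for MRPL50, chr12:93467264-93467563 on the plus strand for MRPL42, chr3:131502922-131503221 on the minus strand for MRPL3, chr2:27771469-27771768 on the plus strand for MRPL33 and chr15:88467339-88467638 on the minus strand for MRPL46.
MRPL50: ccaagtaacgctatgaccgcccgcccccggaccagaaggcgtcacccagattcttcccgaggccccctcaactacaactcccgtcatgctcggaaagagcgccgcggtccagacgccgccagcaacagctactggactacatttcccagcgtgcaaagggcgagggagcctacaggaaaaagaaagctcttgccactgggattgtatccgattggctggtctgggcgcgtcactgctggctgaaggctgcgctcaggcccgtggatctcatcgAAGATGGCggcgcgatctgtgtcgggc
MRPL42: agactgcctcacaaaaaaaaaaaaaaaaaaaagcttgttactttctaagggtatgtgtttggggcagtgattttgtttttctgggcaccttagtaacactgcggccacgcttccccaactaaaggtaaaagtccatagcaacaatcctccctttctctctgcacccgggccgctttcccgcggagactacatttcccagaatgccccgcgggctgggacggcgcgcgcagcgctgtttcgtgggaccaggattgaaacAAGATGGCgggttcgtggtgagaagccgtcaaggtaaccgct
MRPL3: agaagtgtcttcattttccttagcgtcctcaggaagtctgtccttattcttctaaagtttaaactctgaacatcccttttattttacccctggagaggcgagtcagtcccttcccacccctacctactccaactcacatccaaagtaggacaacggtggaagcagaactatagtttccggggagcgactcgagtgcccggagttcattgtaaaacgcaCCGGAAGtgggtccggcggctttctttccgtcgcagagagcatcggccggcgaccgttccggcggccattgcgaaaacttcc
MRPL33: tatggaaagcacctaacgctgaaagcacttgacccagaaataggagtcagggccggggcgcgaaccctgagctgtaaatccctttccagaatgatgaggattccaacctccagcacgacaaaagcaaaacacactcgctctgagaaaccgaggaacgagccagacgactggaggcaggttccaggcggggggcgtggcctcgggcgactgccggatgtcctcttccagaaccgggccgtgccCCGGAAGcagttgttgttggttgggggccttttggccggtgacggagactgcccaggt
MRPL46: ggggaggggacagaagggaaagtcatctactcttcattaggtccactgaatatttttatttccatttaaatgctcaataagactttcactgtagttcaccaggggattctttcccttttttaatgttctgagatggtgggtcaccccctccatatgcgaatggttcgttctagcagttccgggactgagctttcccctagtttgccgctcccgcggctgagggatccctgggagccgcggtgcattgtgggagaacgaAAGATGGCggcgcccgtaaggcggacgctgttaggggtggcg
The capitals mark a YY1 motif just after the start in MRPL50, MRPL42 and MRPL46, and a GABP/ETS motif just before the start in MRPL3 and MRPL33. These windows do not stand for all members with large falls. Of the others named below by that rule, MRPL1, MRPL11, MRPL24, MRPL44, MRPS9 and MRPS25 held no searched motif, and MRPS34 held a GABP/ETS motif.

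Among the large-subunit proteins, 12 of 43 genes were lower and 2 higher in Huh7-R-A7 (median -0.20), and 23 were lower and 1 higher in Huh7-R (median -0.28). The shares that fell were 27.9% in Huh7-R-A7, near the 24.6% of all genes, and 53.5% in Huh7-R, against 26.2%. MRPL50, a large-subunit protein with no bacterial relative, read 8.17, 8.10 and 8.27 in Huh7-R-A7, 8.83, 8.83 and 8.72 in Huh7-R, and 9.77, 9.53 and 9.43 in Huh7-S. The 3 groups did not overlap, with the clone lowest and the pool in between. It fell by 1.40 ± 0.09 (SE) in Huh7-R-A7, 2.63-fold lower than Huh7-S (limma adjusted p = 2.3e-05), and by 0.79 ± 0.09 in Huh7-R (adjusted p = 0.00036). The pool arrays 1 and 2 held the same value for this gene.

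MRPL42, also without a bacterial relative, read 12.52, 12.45 and 12.44 in Huh7-R-A7, 12.69, 12.57 and 12.60 in Huh7-R, and 13.56, 13.16 and 13.21 in Huh7-S. Every resistant array lay below every parental array, and the fall was 0.84 ± 0.11 in Huh7-R-A7 (adjusted p = 0.0005) and 0.69 ± 0.11 in Huh7-R (adjusted p = 0.0013). A probe set of the pseudogene MRPL42P5 carried several symbols in this table, and how far transcripts of such a near copy contribute to the MRPL42 signal was not tested.

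MRPL1 is the relative of the bacterial protein that forms the stalk beside the tRNA exit. Its signal was 7.61, 7.57 and 7.54 in Huh7-R-A7, 7.51, 7.20 and 7.41 in Huh7-R, and 8.38, 8.39 and 8.25 in Huh7-S. The resistant arrays were all lower, and the pool fell by 0.97 ± 0.08 (adjusted p = 8e-05) and the clone by 0.76 ± 0.08 (adjusted p = 0.00024).

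MRPL3, whose bacterial relative reaches towards the catalytic centre, read 11.69, 11.52 and 11.62 in Huh7-R-A7, 11.65, 11.23 and 11.20 in Huh7-R, and 12.49, 12.24 and 12.22 in Huh7-S. The groups of resistant arrays overlapped each other but not the parental arrays. It fell by 0.71 ± 0.13 in Huh7-R-A7 (adjusted p = 0.0035) and by 0.96 ± 0.13 in Huh7-R (adjusted p = 0.0008).

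MRPL24, at the exit of the peptide tunnel, gave 7.45, 7.47 and 7.37 in Huh7-R-A7, 7.18, 7.07 and 6.91 in Huh7-R, and 8.34, 8.11 and 7.86 in Huh7-S. Here the pool was lowest on all 3 arrays, the reverse of the order seen for MRPL50. The pool fell by 1.05 ± 0.12, 2.07-fold lower (adjusted p = 0.00035), and the clone by 0.68 ± 0.12 (adjusted p = 0.003).

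MRPL11 and MRPL12 belong to the stalk that draws translation factors to the ribosome. MRPL11 read 9.94, 9.79 and 9.82 in Huh7-R-A7, 10.02, 9.85 and 9.76 in Huh7-R, and 10.78, 10.58 and 10.24 in Huh7-S, with no overlap between resistant and parental arrays. Its fall was nearly equal in both lines, at 0.68 ± 0.13 in Huh7-R-A7 (adjusted p = 0.0046) and 0.66 ± 0.13 in Huh7-R (adjusted p = 0.0053). MRPL12, which has also been reported to bind the mitochondrial RNA polymerase, differed by -0.10 in Huh7-R-A7 (adjusted p = 0.22) and -0.13 in Huh7-R (adjusted p = 0.13), with 4 of its 9 arrays at 1 value and overlapping groups.

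MRPL44 has a ribonuclease III fold and no bacterial ribosomal relative. It read 9.18, 9.17 and 8.96 in Huh7-R-A7, 9.05, 8.76 and 8.74 in Huh7-R, and 9.82, 9.69 and 9.40 in Huh7-S. Both resistant lines lay below the parental cells, by 0.53 ± 0.13 in Huh7-R-A7 (adjusted p = 0.012) and 0.79 ± 0.13 in Huh7-R (adjusted p = 0.0019).

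MRPL45, which anchors the ribosome to the inner membrane at the tunnel exit, and MRPL58, a peptidyl-tRNA hydrolase that frees stalled ribosomes, had adjusted p-values nearer to or above 0.05. MRPL45 differed by -0.22 ± 0.10 in Huh7-R-A7 (adjusted p = 0.13) and -0.19 ± 0.10 in Huh7-R (adjusted p = 0.18), and its near copy MRPL45P2 has a probe set of its own that was left out. MRPL58 was 8.84, 9.07 and 8.83 in Huh7-R-A7, 9.13, 8.85 and 8.49 in Huh7-R, and 9.73, 9.53 and 9.07 in Huh7-S. One resistant array in each line reached the lowest parental array. The pool passed at -0.62 ± 0.21 (limma adjusted p = 0.041) and the clone did not at -0.53 ± 0.21 (adjusted p = 0.072). The pool kept its call only without Huh7-R replicate 1 or Huh7-S replicate 3, and its adjusted p was 0.057 to 0.13 without any other array. The clone passed at 0.022 without Huh7-S replicate 3 and at 0.024 with a replicate block.

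The members that rose were 2 large-subunit genes. MRPL18, the relative of a bacterial protein that holds the smallest ribosomal RNA and one with a described cytosolic form made under heat stress, read 9.24, 9.17 and 9.01 in Huh7-R-A7, 9.28, 9.05 and 8.92 in Huh7-R, and 8.83, 8.51 and 8.20 in Huh7-S. All resistant arrays were above all parental arrays. It rose by 0.62 ± 0.16 in Huh7-R-A7 (adjusted p = 0.016) and by 0.57 ± 0.16 in Huh7-R (adjusted p = 0.024). The clone call was lost without Huh7-R-A7 replicate 1 (adjusted p = 0.055) or replicate 2 (0.051), and the pool call without Huh7-R replicate 1 (0.071) or replicate 2 (0.059) and without Huh7-S replicate 2 (0.063) or replicate 3 (0.055).

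MRPL33, a small protein with a bacterial relative, read 7.51, 7.55 and 7.05 in Huh7-R-A7, 7.00, 7.01 and 7.01 in Huh7-R, and 6.88, 6.97 and 6.80 in Huh7-S. Clone array 3 stood near the pool arrays and apart from the other clone arrays. The clone rose by 0.49 ± 0.12 (adjusted p = 0.015), and the pool differed by 0.12 ± 0.12 (adjusted p = 0.45). Without Huh7-R-A7 replicate 1 or replicate 2 the clone's adjusted p was 0.053.

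**Figure D3:**
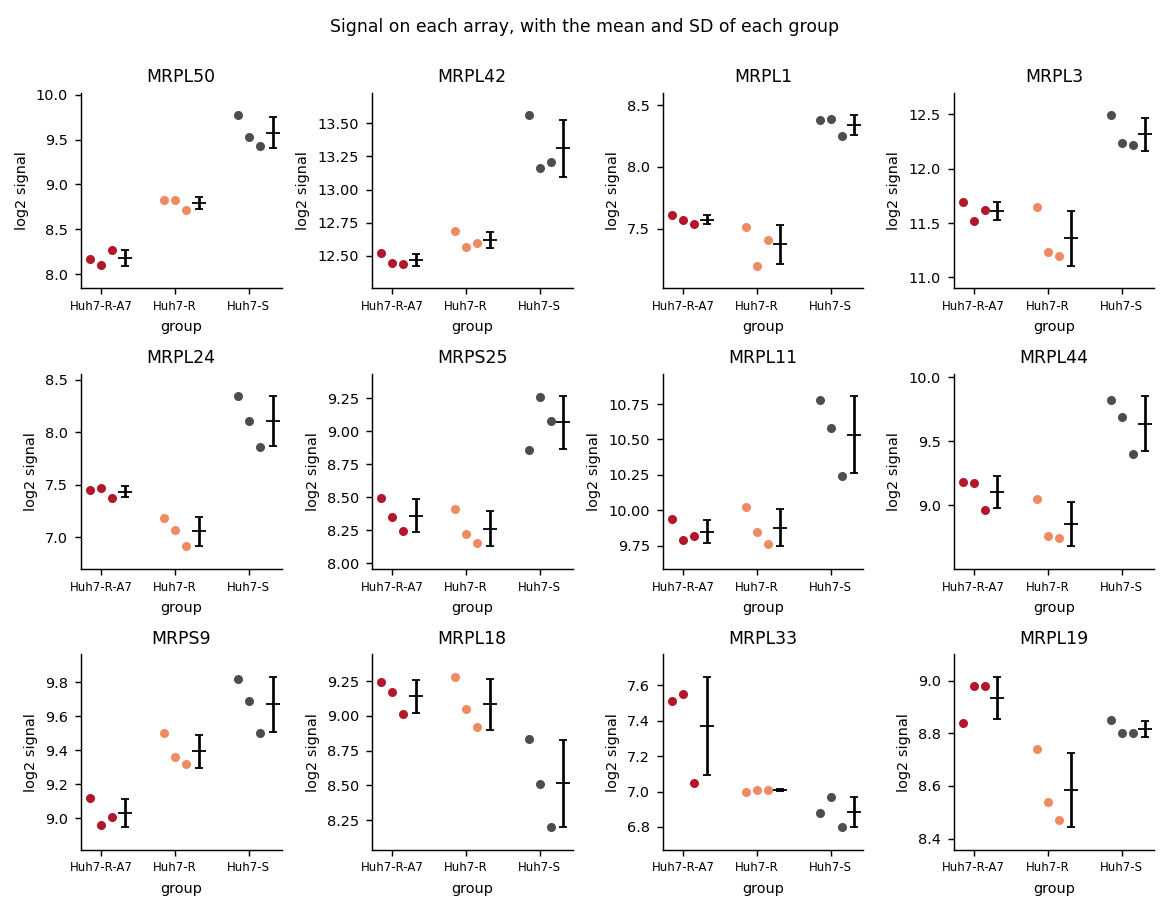
Log2 signal (vertical axis) of 12 members in the 3 cultures each of Huh7-R-A7, Huh7-R and Huh7-S (horizontal axis), with a point for each array and a bar for the mean and SD of the group, each panel on its own scale. MRPL50 is lowest in the clone and MRPL24 in the pool, and MRPL18 is higher in both resistant lines than in Huh7-S.

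Of the 23 small-subunit genes, 8 were lower in Huh7-R-A7 (34.8%, against 24.6% of all genes, median -0.19) and 12 in Huh7-R (52.2%, against 26.2%, median -0.29). None was higher in either line by limma, whether at an adjusted p or an unadjusted p below 0.05. MRPS25, a mitochondria-specific protein, read 8.49, 8.35 and 8.24 in Huh7-R-A7, 8.41, 8.22 and 8.15 in Huh7-R, and 8.86, 9.26 and 9.08 in Huh7-S. The resistant lines overlapped each other and lay wholly below the parental cells, by 0.71 ± 0.12 in Huh7-R-A7 (adjusted p = 0.0021) and 0.81 ± 0.12 in Huh7-R (adjusted p = 0.0011).

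MRPS9, in the head of the small subunit, read 9.12, 8.96 and 9.01 in Huh7-R-A7, 9.50, 9.36 and 9.32 in Huh7-R, and 9.82, 9.69 and 9.50 in Huh7-S. The clone arrays were the lowest, and the highest pool array and the lowest parental array both rounded to 9.50. The clone fell by 0.64 ± 0.09 (adjusted p = 0.00098). The pool passed narrowly at -0.28 ± 0.09 (adjusted p = 0.042) but kept its call only without Huh7-R-A7 replicate 1, Huh7-R replicate 1 or Huh7-S replicate 3, with an adjusted p of 0.058 to 0.13 without any other array, and of 0.052 after median centring.

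MRPS34, which keeps the small subunit stable, read 10.58, 10.58 and 10.30 in Huh7-R-A7, 10.67, 10.31 and 9.90 in Huh7-R, and 11.32, 11.06 and 10.69 in Huh7-S. The 3 arrays of each group were widely spread, and the lowest parental array stood just above the highest pool array. The pool passed at -0.73 ± 0.22 (adjusted p = 0.029) and the clone did not at -0.54 ± 0.22 (adjusted p = 0.085). The pool call was lost without Huh7-R replicate 2 (adjusted p = 0.073) or replicate 3 (0.087) and without Huh7-S replicate 1 (0.078) or replicate 2 (0.078), and the clone passed at 0.007 with a replicate block and at 0.044 without Huh7-S replicate 3.

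The MRPS18 proteins are relatives of 1 bacterial protein, and each mitochondrial ribosome carries all of them at different places. MRPS18B read 8.87, 8.72 and 8.86 in Huh7-R-A7, 8.81, 8.71 and 8.63 in Huh7-R, and 9.56, 9.26 and 9.04 in Huh7-S, and it was lower in both lines without overlap, by 0.47 ± 0.12 in Huh7-R-A7 (adjusted p = 0.018, and 0.063 without Huh7-R-A7 replicate 2) and 0.57 ± 0.12 in Huh7-R (adjusted p = 0.0074). MRPS18A, which despite its name sits in the large subunit, differed by -0.24 ± 0.11 in Huh7-R-A7 (adjusted p = 0.11) and -0.39 ± 0.11 in Huh7-R (adjusted p = 0.02). The pool call of MRPS18A was lost without Huh7-R replicate 3 (0.062), Huh7-S replicate 1 (0.052) or Huh7-S replicate 2 (0.063), and the clone passed at 0.032 without Huh7-S replicate 3. MRPS18C held 1 value on 7 of the 9 arrays, and neither of its differences passed (adjusted p = 1.0 in Huh7-R-A7 and 0.39 in Huh7-R).

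The background, over all genes, was 24.6% lower in Huh7-R-A7 and 26.2% lower in Huh7-R. Of 38 genes with a bacterial relative, 11 were lower (28.9%) and 2 higher in Huh7-R-A7 (median -0.17). In Huh7-R, 19 of these 38 were lower and 1 higher (median -0.28). Of 28 genes specific to mitochondria, 9 were lower in Huh7-R-A7 (32.1%, median -0.23). In Huh7-R, 16 of these 28 were lower (median -0.30). In this second class 0 were higher by limma at an adjusted or an unadjusted p below 0.05. That class follows the place a protein takes in the ribosome, so it holds MRPS18A and MRPS18B although they are relatives of a bacterial protein, and without them 8 of 26 were lower in Huh7-R-A7 (median -0.21) and 14 in Huh7-R (median -0.30). In Huh7-R-A7 the share of either class that fell was not far above the background. Neither this split nor that by subunit was tested.

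In Huh7-R-A7 against Huh7-R, 1 member was higher and 1 lower, where 4.11% of all genes were higher and 4.52% lower. At an unadjusted p below 0.05, 8 members were higher and 3 lower, beside 1112 higher and 1115 lower among all 9784 genes. The median difference was 0.08, against 0.00 over all genes, and 52 of 66 members had a positive difference, as had 5044 of 9784 genes. MRPL50 was lower in the clone by 0.61 ± 0.09 (adjusted p = 0.0073), and it passed whichever of the 9 arrays was dropped.

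MRPL19, a bacterial-type protein at the face between the subunits, read 8.84, 8.98 and 8.98 in Huh7-R-A7, 8.74, 8.54 and 8.47 in Huh7-R, and 8.85, 8.80 and 8.80 in Huh7-S. The clone arrays lay above the pool arrays and overlapped the parental ones. Against Huh7-S the clone differed by 0.12 ± 0.08 (adjusted p = 0.27) and the pool by -0.23 ± 0.08 (adjusted p = 0.04), a pool call that was kept without only 2 of the 9 arrays and was lost with centring (-0.16, 0.11), with quantile normalization (-0.15, 0.13), with a replicate block (0.065) and in 7 fits with an array dropped (0.058 to 0.13). It was higher in the clone than in the pool by 0.35 ± 0.08 (adjusted p = 0.033), but the call was lost without 6 of the 9 arrays in turn, at an adjusted p of 0.11 without Huh7-R-A7 replicate 2 or replicate 3 and without Huh7-R replicate 3, 0.12 without Huh7-R replicate 2, and 0.054 and 0.051 without Huh7-S replicates 2 and 3.

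The same-numbered clone and pool arrays deviated together, so this comparison was also fitted with a replicate block. That block tied same-numbered arrays of all 3 groups, although the Huh7-S arrays showed no such relation to the clone or the pool. Under that block, MRPL50 and MRPS9 were lower in the clone and MRPL24 was higher, so that 1 member was higher and 2 were lower, and MRPL19 no longer passed (adjusted p = 0.057). MRPS9 differed by -0.36 ± 0.09 between clone and pool (adjusted p = 0.051 without the block and 0.02 with it), and MRPL24 by 0.37 ± 0.12 (0.12 and 0.041). MRPL53, chosen here after its values were seen, had the largest positive difference, 0.51 ± 0.16 (adjusted p = 0.096). It read 7.56, 7.70 and 7.72 in Huh7-R-A7, 7.23, 7.24 and 7.00 in Huh7-R, and 7.70, 7.31 and 7.04 in Huh7-S, and Huh7-S replicate 1 alone reached the clone's level.

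**Figure D4:**
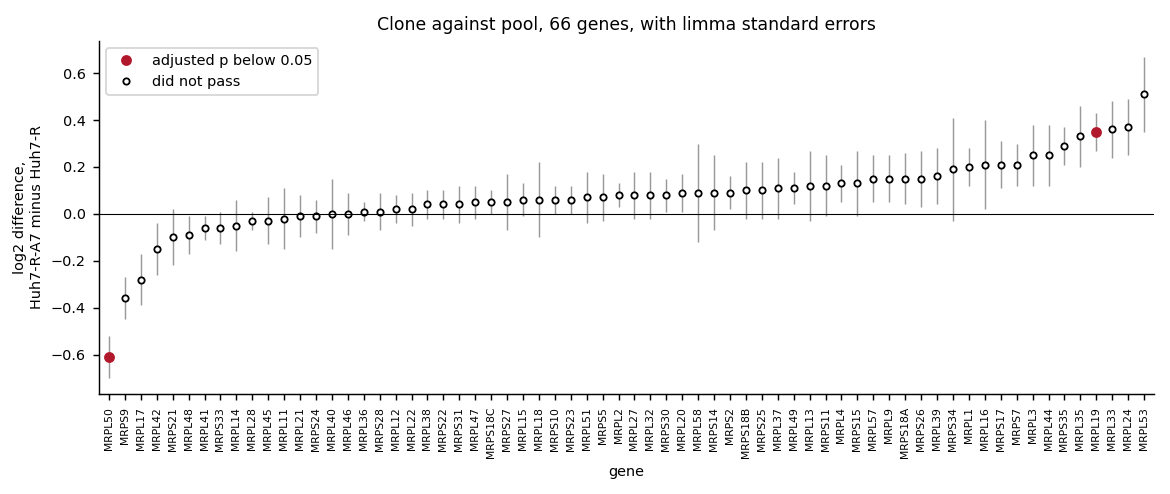
Log2 difference, Huh7-R-A7 minus Huh7-R (vertical axis), of each of the 66 genes (horizontal axis, in order of the difference), with bars for the limma standard error and filled red points for genes past an adjusted p of 0.05. MRPL50 at -0.61 and MRPL19 at 0.35 are the filled points, and 52 of the points lie above 0.

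The motifs searched on both strands of the promoter windows were those of factors known to act on nuclear genes for mitochondrial proteins, NRF1 (GCGCATGC), GABP and other ETS factors (CCGGAAG) and YY1 (AAGATGGC), and the E-box (CACGTG) bound by MYC and its partners. The end of the GABP/ETS motif and the start of the YY1 motif share letters, so that the 2 can overlap. The YY1 letters also contain ATG, and whether a marked YY1 motif lies on a translation start was not checked. Of the 66 members, 60 had a window in the RefSeq table. The YY1 motif was in 31.7% of these genes, in 7.33% of the other genes tested and in 3.52% of all genes of the table. The GABP/ETS motif was in 40.0% of member genes, 24.0% of the others tested and 12.2% of all. NRF1 was in 8.33%, 6.73% and 3.68%, and the E-box in 15.0%, 12.9% and 8.77%.

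Within the members, the GABP/ETS motif was in 9 of 36 genes that were lower in at least 1 resistant line and in 15 of 24 that were lower in neither. The YY1 motif was in 10 of those 36 and 9 of those 24. These are descriptions of letters in a window, with no test, and they do not show that a factor binds there. Of the factors themselves, named for these motifs after their values were seen, YY1 differed by -0.10 ± 0.06 in Huh7-R-A7 (adjusted p = 0.23), fell by 0.46 ± 0.06 in Huh7-R (adjusted p = 0.00071) and was higher in clone than in pool by 0.36 ± 0.06 (adjusted p = 0.012). GABPA, the DNA-binding subunit of GABP, differed by -0.05 ± 0.07 in Huh7-R-A7 (adjusted p = 0.61) and 0.01 ± 0.07 in Huh7-R (adjusted p = 0.93).

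Many members start close to a gene on the opposite strand. Such a protein-coding neighbour began within 1000 bases for 19 members, a rule added after the values were seen, and for 12 of them the neighbour was measured. The pairs named here were chosen after their values were seen. MRPL46 and MRPS11 are 2 members that share 1 such region, with starts 320 bases apart. MRPL46 read 7.78, 7.82 and 7.80 in Huh7-R-A7, 7.87, 7.79 and 7.73 in Huh7-R, and 8.25, 8.16 and 7.91 in Huh7-S. MRPS11 read 8.15, 8.15 and 7.90 in Huh7-R-A7, 8.05, 8.03 and 7.77 in Huh7-R, and 8.47, 8.74 and 8.31 in Huh7-S. Both genes of this pair were lower in both lines without overlap with the parental arrays, MRPL46 by 0.30 ± 0.09 and 0.31 ± 0.09 (adjusted p = 0.023 in Huh7-R-A7 and 0.021 in Huh7-R) and MRPS11 by 0.44 ± 0.13 and 0.56 ± 0.13 (adjusted p = 0.027 in Huh7-R-A7 and 0.0099 in Huh7-R). The clone call of MRPL46 was lost without any 1 clone array (0.054 to 0.065) and without Huh7-S replicate 1 (0.051) or replicate 2 (0.073), and its pool call without Huh7-R replicate 2 (0.061) or replicate 3 (0.075) or Huh7-S replicate 2 (0.068). The clone call of MRPS11 was lost without Huh7-R-A7 replicate 3 (0.092) or Huh7-S replicate 2 (0.079).

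The neighbour of MRPL50 is ZNF189, a zinc finger gene that starts 233 bases away. It read 6.73, 6.98 and 7.09 in Huh7-R-A7, 7.27, 7.74 and 7.63 in Huh7-R, and 7.27, 7.41 and 7.42 in Huh7-S. It was lower in the clone than in the parental cells by 0.43 ± 0.14 (adjusted p = 0.038) and than in the pool by 0.61 ± 0.14 (adjusted p = 0.035), whereas in the pool it differed from Huh7-S by 0.18 ± 0.14 (adjusted p = 0.32). MRPL14, a bacterial-type protein of the large subunit that was chosen after its values were seen, read 7.31, 7.43 and 7.46 in Huh7-R-A7, 7.57, 7.31 and 7.47 in Huh7-R, and 7.96, 8.23 and 7.87 in Huh7-S, and it fell by 0.62 ± 0.11 in Huh7-R-A7 (adjusted p = 0.0023) and by 0.57 ± 0.11 in Huh7-R (adjusted p = 0.0033). Its neighbour TMEM63B, which codes for a membrane channel, fell by 1.03 ± 0.13 (adjusted p = 0.00058) and 0.84 ± 0.13 (adjusted p = 0.0015) in the same lines. MRPL49 and FAU, which encodes a ubiquitin-like protein fused to a cytosolic ribosomal protein, gave differences of 0.13 and 0.07 in Huh7-R-A7 and of 0.03 and 0.02 in Huh7-R, and none of the 4 passed (adjusted p = 0.16, 0.59, 0.79 and 0.87). In some other pairs only the neighbour passed in Huh7-R-A7. NCAPD2 was at -0.69 (limma adjusted p = 0.0026) and MRPL51 at -0.17 (0.26). EME1 was at -0.50 (0.002) and MRPL27 at -0.20 (0.16). SKA3 was at -0.69 (0.017) and MRPL57 at -0.14 (0.27). PPP1R10 (-0.32, 0.02) and MRPS18B (-0.47, 0.018) both passed. Whether such pairs move together was not tested.

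By chromosome, the 7 members on chromosome 1 were all negative in both lines, with 3 lower in Huh7-R-A7 and 5 in Huh7-R (medians -0.34 and -0.40), against medians of -0.02 and -0.05 over the 927 other genes of that chromosome, of which 22.1% and 25.0% were lower. On chromosome 11, 3 of 6 members were lower in each line, against 19.3% of its other genes in Huh7-R-A7 and 15.9% in Huh7-R. On chromosome 6, 2 of 6 members were lower in Huh7-R-A7 and 3 in Huh7-R, against 17.6% and 19.2% of the others. On chromosome 17, 0 of 7 were lower in Huh7-R-A7 by limma (1 at an unadjusted p below 0.05) and 2 were in Huh7-R, against 23.7% and 25.4% of its other genes. On chromosome 2, 2 of 7 members were lower in Huh7-R-A7 and 4 in Huh7-R, against 34.8% and 36.4% of its other genes. The median clone-minus-pool difference of these 7 was 0.33, against 0.04 over its other genes. Only MRPL19 passed in that comparison (0.35, limma adjusted p = 0.033). MRPS9 (-0.36, adjusted p = 0.051), MRPL33 (0.36, 0.13), MRPL35 (0.33, 0.18) and MRPL53 (0.51, 0.096) did not. MRPL35 and MRPL53 were named after their values were seen.

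Proteins that work with or build these ribosomes were counted in the same fits. Over all genes, 24.6% were lower and 18% higher in Huh7-R-A7, and 26.2% and 19% in Huh7-R. Of 5 measured mitoribosome proteins and partners that carry other symbols, 1 was lower in Huh7-R-A7 and 2 in Huh7-R. OXA1L, the inner-membrane insertase on which the ribosome docks, fell by 0.60 ± 0.07 in Huh7-R-A7 (adjusted p = 0.00039) and by 0.77 ± 0.07 in Huh7-R (adjusted p = 0.00012), while DAP3, a small-subunit protein chosen after its values were seen, differed by -0.04 (adjusted p = 0.59) and -0.14 (adjusted p = 0.055). Of 22 assembly factors, 9 were lower and 1 higher in Huh7-R-A7 (median -0.26), and 11 were lower and 1 higher in Huh7-R (median -0.27). NOA1, a GTPase needed for mitochondrial translation, fell by 1.52 ± 0.10 in Huh7-R-A7 (adjusted p = 2e-05) and fell by 1.71 ± 0.10 in Huh7-R (adjusted p = 1.1e-05). MRM3, which methylates the large ribosomal RNA, fell by 0.78 ± 0.11 (adjusted p = 0.001) and 1.09 ± 0.11 (adjusted p = 0.00019).

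Of 11 mitochondrial translation factors, 3 were lower (27.3%) and 2 higher in Huh7-R-A7, and 4 were lower (36.4%) and 2 higher in Huh7-R. GUF1, a ribosome-bound GTPase, fell by 1.62 ± 0.13 in Huh7-R-A7 (adjusted p = 5.5e-05) and by 1.49 ± 0.13 in Huh7-R (adjusted p = 8.9e-05). MTRF1L, a release factor, rose by 0.70 ± 0.06 (adjusted p = 8.4e-05) and 0.68 ± 0.06 (adjusted p = 0.00011). Of 17 genes that charge mitochondrial tRNAs, 7 were lower (41.2%) and 2 higher in Huh7-R-A7, and 5 were lower (29.4%) and 4 higher in Huh7-R. MARS2, the methionyl-tRNA synthetase, was at -0.82 ± 0.15 and -1.06 ± 0.15 (adjusted p = 0.0034 and 0.00096). RARS2, the arginyl-tRNA synthetase, went the other way at 0.78 ± 0.07 and 1.05 ± 0.07 (adjusted p = 9.2e-05 and 2.4e-05).

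Of 21 genes of mitochondrial transcription and RNA handling, 4 were lower and 1 higher in each line. The share that fell, 19.0% in each line, was below that over all genes. TFAM, which packages mitochondrial DNA, was among the lower ones at -0.48 ± 0.11 in Huh7-R-A7 (adjusted p = 0.0086) and -0.70 ± 0.11 in Huh7-R (adjusted p = 0.0014). Of 10 regulators of mitochondrial biogenesis, 4 were lower and 1 higher in Huh7-R-A7 and 5 were lower and 1 higher in Huh7-R. MYC was among the lower ones at -0.71 ± 0.23 (adjusted p = 0.036) and -0.95 ± 0.23 (adjusted p = 0.01), and GABPB2 was the higher one at 1.08 ± 0.21 (adjusted p = 0.0039) and 0.85 ± 0.21 (adjusted p = 0.012). Of 12 genes of the mitochondrial unfolded protein response, 6 were lower and 2 higher in Huh7-R-A7 and 8 were lower and 0 higher in Huh7-R, where 0 were also higher at an unadjusted p below 0.05. HSPE1, the cochaperone of HSPD1, fell by 0.74 ± 0.15 (adjusted p = 0.0052) and fell by 0.97 ± 0.15 (adjusted p = 0.0014). No mitochondrially encoded gene was measured.

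Of 50 cytosolic ribosomal protein genes, 7 were lower (14.0%) and 1 higher in Huh7-R-A7 (median -0.06). In Huh7-R, 11 were lower (22.0%) and 0 higher by limma (median -0.07), and 3 were higher at an unadjusted p below 0.05. The symbol rule also took in RPL7L1 and RPS19BP1, which are no ribosomal proteins and were left out of these counts after their values were seen. With them the list held 52 genes, of which 2 were higher in Huh7-R-A7, the second being RPL7L1 (0.40 ± 0.09, adjusted p = 0.0071). RPL9 fell by 1.29 ± 0.10 (adjusted p = 3.9e-05) and 1.23 ± 0.10 (adjusted p = 5.2e-05), and RPS6 by 0.98 ± 0.10 (adjusted p = 0.00014) and 1.12 ± 0.10 (adjusted p = 7.9e-05). Many cytosolic ribosomal protein genes have near-identical pseudogenes, so their probe sets may pick up more than 1 transcript. The difference between the mitochondrial and cytosolic sets was not tested.

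**Figure D5:**
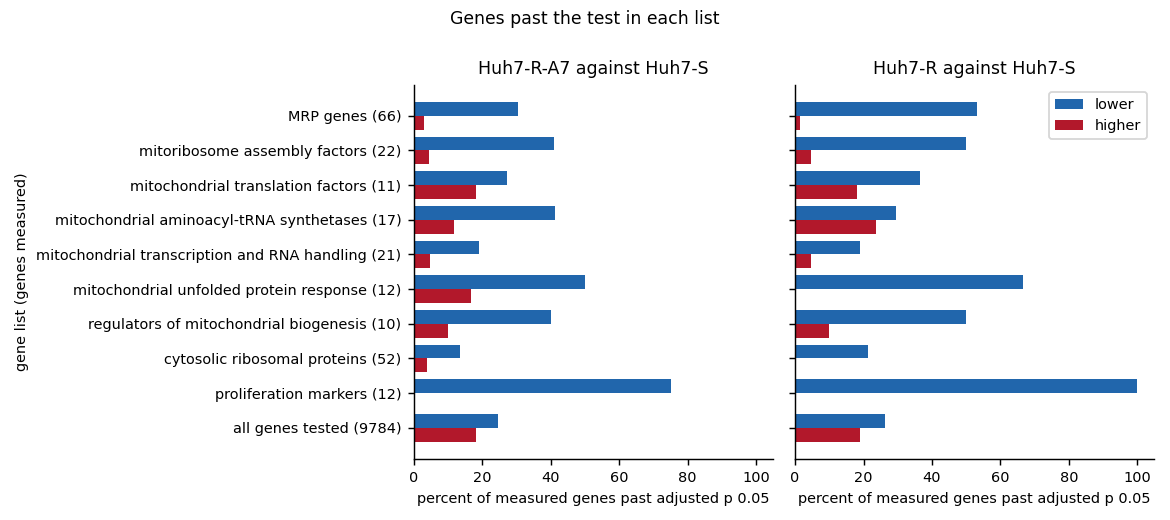
Percent of the measured genes of each list (rows, with the number measured) that were lower (blue) or higher (red) at an adjusted p below 0.05, for Huh7-R-A7 against Huh7-S on the left and Huh7-R against Huh7-S on the right. Of the member genes 30.3% and 53.0% were lower, beside 24.6% and 26.2% of all genes, and the cytosolic list is drawn with all 52 genes of its symbol rule.

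Markers of growth and of cell type moved with the same groups. Of 12 proliferation markers, 9 were lower in Huh7-R-A7 (median -0.71) and 12 in Huh7-R (median -0.89), with MCM6, a subunit of the replicative helicase, at -3.09 ± 0.15 and -2.35 ± 0.15 (adjusted p = 5.4e-06 and 1.9e-05). The summed log2 signal of 8 measured hepatocyte markers of 10 was 87.7 to 95.6 in Huh7-R-A7, 93.9 to 98.5 in Huh7-R and 103.3 to 111.2 in Huh7-S. That of COL1A2 and LUM, 2 measured fibroblast markers of 6, was 15.5 to 15.8, 16.6 to 17.2 and 10.6 to 11.0. On each Huh7-S array at least 1 of these 2 therefore lay below log2 6, the noise limit of the study. A sum does not show which marker moved. CD68, the only measured immune marker of 6, read 13.2 to 13.5, 12.7 to 13.3 and 8.1 to 11.1, and none of 5 endothelial markers was measured. The part of these shifts in the results on the mitochondrial ribosome was not tested.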

How the data were processed

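Total RNA of 9 Huh7 cultures was hybridised to Affymetrix transcriptome arrays. The authors deposited log2 signals that their notes say were produced by RMA with Affymetrix Expression Console. Its version is not given in the sources used here, nor is a build. Of 11013 probe sets, 9851 had 1 symbol, 624 several and 538 none. Symbols of 77 were updated through RefSeq, and probe sets of a gene were averaged, which gave 9784 genes.

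Groups followed the sample titles. Tests were run gene by gene in R 4.3.3 with limma 3.58.1 (lmFit, then eBayes with trend) with group as the only term over the 9 arrays, which left 6 residual degrees of freedom. The p-values are two-sided and were adjusted by Benjamini-Hochberg over all 9784 genes. The method was tested on simulated data. Precision is limited by having 3 arrays in each group. Members and gene lists were chosen with earlier results of these data known. Named members were up to 8 with the largest rises and up to 8 with the largest falls against Huh7-S, up to 5 of each between clone and pool, past the test and without overlap, and genes fixed by role. From each list up to 3 genes with the largest change were eligible, and any other gene named is marked as chosen after its values were seen. For replicates 1, 2 and 3, deviations from the group mean in Huh7-R-A7 and in Huh7-R correlated across genes (0.60, 0.49 and 0.42). A link between same-numbered clone and pool arrays rests on this basis alone. The fit with group as the only term did not pair them, and no fit paired the clone and pool alone. Huh7-S showed no such relation to the clone (-0.21 to -0.07) or the pool (-0.11 to 0.10). The replicate block still covered all 9 arrays, the Huh7-S arrays included. Alternatives covered the arrays fitted, a replicate block, scaling, the variance prior, the probe set rule, equal values, low signal, a stricter threshold and each array left out. Tables were handled with pandas 2.3.3 in Python 3.11.15 and plotted with matplotlib 3.10.9. Promoters came from RefSeq on GRCh38.p14.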

Additional observations from a re-analysis of the deposited data

Results flagged for a closer look

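The 2 resistant lines differed from each other in their change against the shared Huh7-S arrays for 2 members, by the unpaired limma test of Huh7-R-A7 against Huh7-R. For MRPL50 the change in the clone minus that in the pool was -0.61 (adjusted p = 0.0073), and for MRPL19 it was 0.35 (adjusted p = 0.033). The MRPL50 difference passed in all 9 fits with 1 array left out and that of MRPL19 in 3 of them. These values come from the fit without pairing. A replicate block over all 9 arrays also tied in the Huh7-S arrays by number, so it is not a pairing of clone and pool alone. Under it, MRPL50 still passed, MRPL19 did not (adjusted p = 0.057), and MRPS9 (-0.36, adjusted p = 0.02) and MRPL24 (0.37, adjusted p = 0.041) did. The cause of either difference was not tested.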

How the results depend on the processing

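Counts below are members higher and lower. In Huh7-R-A7 against Huh7-S they were 2 and 20. With only the 6 arrays compared they were 1 and 17, with each array centred on its median 6 and 18, and over the 3925 genes with 9 different values 1 and 13, with a median of -0.48 and 37.7% of those genes lower. Leaving out 1 array gave 0 to 3 higher and 14 to 32 lower, with medians of -0.25 to -0.16. At 14 the members' share, 21.2%, was near that of all genes (19.5% and 19.6%). Without Huh7-S replicate 1 the members' share, 22.7%, was below the 25.4% of all genes. In Huh7-R against Huh7-S they were 1 and 35. With only 6 arrays they were 0 and 19 (28.8%, against 21.7% of all genes), with median centring 2 and 30, and over genes with 9 different values 1 and 16, with a median of -0.52 and 39.1% lower. Leaving out 1 array gave 0 to 1 higher and 16 to 40 lower, with medians of -0.36 to -0.23, and at 16 the members' share was 24.2%, against 19.4% of all genes. In Huh7-R-A7 against Huh7-R they were 1 and 1. With only 6 arrays they were 4 and 3, with median centring 3 and 2, with quantile normalization 1 and 2, over genes with 9 different values 0 and 0 by limma (2 and 1 at an unadjusted p below 0.05), and with replicates 2 and 3 of each group, chosen after seeing the data, 6 and 2. Leaving out 1 array gave 0 to 5 higher and 1 to 2 lower, with medians of 0.03 to 0.11. Requiring a limma p under 0.0001 before adjustment, together with a fold over 3 or under 0.25, left 0 higher and 0 lower in all 3 comparisons, so that every call was lost. The cause of these moves was not tested, beyond the fewer arrays or genes that some settings use.

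The replicate block, which tied same-numbered arrays of all 3 groups, gave 2 higher and 25 lower in Huh7-R-A7 against Huh7-S. It gave 1 and 35 in Huh7-R against Huh7-S, and 1 and 2 in Huh7-R-A7 against Huh7-R. Median centring moved the median of all genes from -0.04 in Huh7-R-A7 and -0.03 in Huh7-R to 0.04 in each, and members had medians of -0.12 and -0.21 there. No member's difference changed sign with its call. Of single-gene values under the alternatives other than that stricter threshold, 3387 kept their side of the threshold, 70 newly passed and 173 no longer passed. With 3 arrays a group, small differences were not detectable, and probe sets with equal values on several arrays may understate the spread.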
